A study of Solenopsis invicta with 12 samples.

Results

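Of the 19230 genes measured in the antennae of fire ant (Solenopsis invicta) workers, 15589 came from the official gene set and 3641 were added from transcripts assembled out of the antennal reads themselves. The added loci carry XLOC identifiers. The report covers the 476 of them for which the assembly gave 2 or more transcripts, at least 1 of which had 2 or more exons. They were chosen by transcript and exon number alone. The other XLOC loci were 510 multi-exon loci with 1 transcript, 2514 single-exon loci with 1 transcript and 141 loci with several single-exon transcripts.

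The study asked which antennal genes differ with the genotype at a social supergene and which differ with the social form of the colony. It used 3 worker classes with 4 bioreplicates each, numbered 2, 3, 6 and 7 (12 libraries). M_BB were SB/SB workers from monogyne colonies, P_BB were SB/SB workers from polygyne colonies, and P_Bb were SB/Sb workers from polygyne colonies. Each library was made from pooled antennae of 1 colony, after the workers had been genotyped at Gp-9 from their bodies. P_BB and P_Bb workers of a bioreplicate number were nestmates, so the 8 polygyne libraries came from 4 colonies, and social form cannot be told apart from other differences between the colonies. A bioreplicate number also stands for 1 monogyne and 1 polygyne colony that were collected together and sampled together. All workers were foragers from colonies kept in the laboratory for some months, and the amplified cDNA holds the RNA of every antennal cell type. In such bulk samples fewer cells of a type and less RNA per cell cannot be told apart. No marker genes of the antenna are named for these loci, so the tissue label was not checked here.

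One locus can give rise to several messenger RNAs when introns are spliced out in different combinations, when an intron is kept, or when transcription starts or ends at different places. Such isoforms can encode different proteins, and intron retention often yields transcripts that are not translated in full. In monogyne colonies 1 queen reproduces, and in polygyne colonies several do. In polygyne colonies the SB and Sb variants of the supergene, a chromosome region with suppressed recombination, are both present. The antenna is the main organ of smell in ants, and workers use it to tell queens and nestmates from others.

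The 476 loci held 1495 assembled transcripts. There were 241 loci with 2 transcripts, 125 with 3, 42 with 4, 22 with 5 and 46 with 6 or more. The largest number of exons in a transcript was 3 for the median locus and 15 at most. On the Si_gnH assembly the loci spanned a median of 5842 bases, from 572 to 197329 bases. The span rose with the number of transcripts, from a median of 4203 bases at 2 transcripts to 20164 bases at 6 or more. Both the span (Spearman's rho = 0.397) and the largest exon number (rho = 0.396) went up with the number of transcripts across the 476 loci, given as a description, since exons and transcripts of a locus come from the same assembly.

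**Figure D1:**
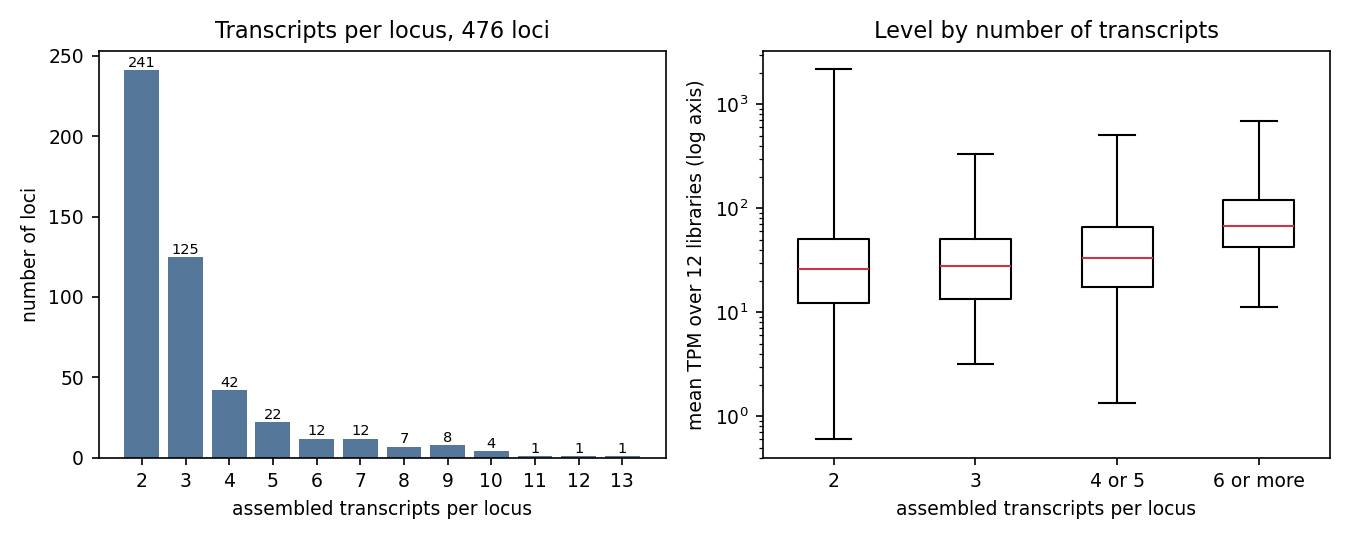
Left, the number of loci (y axis) by assembled transcripts per locus (x axis). Right, mean TPM over the 12 libraries on a log axis, with the box from the first to the last quartile, the red line at the median and whiskers to the lowest and highest locus; the median is 26.3 TPM at 2 transcripts and 68.2 TPM at 6 or more.

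The transcripts differed in how they related to the official gene set. At 275 of the 476 loci at least 1 transcript matched an official transcript by the class codes of the assembly, and at 135 loci a transcript shared at least 1 splice junction with one. At 169 loci every transcript lay between official genes. At 31 loci a transcript overlapped an official exon on the opposite strand. The loci were spread over 335 scaffolds and contigs, 246 of which held 1 locus, and 225 lay on the plus and 251 on the minus strand. At 237 loci an exon of 1 transcript spanned a whole intron of another, as an intron kept in 1 transcript does. The annotation and the count tables number the official genes differently, so whether a matched official gene was also counted under its own name was not determined here.

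Overlap with other annotated loci was common. At 275 loci the span overlapped another locus of the annotation, and at 220 of them a locus on the opposite strand. The counting is not stated to use strand, so reads from a locus and its antisense partner cannot be told apart. RSEM, which shares out reads that fit several transcripts, gives a posterior SD for each count. The median SD was 0.219% of the count, 393 loci were under 1% and 24 over 5%.

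None of the 5 loci named here for their number of transcripts was among the 5 with the highest levels. XLOC_005136 (scaffold 1, 3157044 to 3213989, plus strand) had 13 assembled transcripts, only 1 of which was in the reference to which reads were counted, and a mean of 28.1 TPM. XLOC_027401 (scaffold 94, 67023 to 87760) had 12 transcripts and 67.4 TPM. XLOC_020326 (scaffold 42, 172314 to 176834) had 11 and 59.2 TPM. XLOC_000140, on contig 21556 from base 1 to 3522, had 10 and 320 TPM, and XLOC_016834 on scaffold 28 had 10 and 185 TPM. In all 4 loci had 10 transcripts, and of these only XLOC_000140 and XLOC_016834 are named here. Of the 1495 transcripts, 1109 were in the counting reference. All transcripts were in it at 236 loci, and only 1 at 148.

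The 3 longest loci were XLOC_012154 on scaffold 14 (197329 bases, 2 transcripts), XLOC_012875 on scaffold 16 (183053 bases, 9 transcripts) and XLOC_008231 on scaffold 6 (164960 bases, 4 transcripts). XLOC_012154 and XLOC_012875 hold transcripts that lie opposite an official gene's exons. XLOC_012875 had 646 TPM on average, whereas XLOC_008231 had 13.6 TPM.

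Levels were measured as TPM, an abundance scaled within each library and corrected for transcript length, and as RSEM's expected counts of read pairs. Each library held 1662249 to 4101327 expected counts. The 4 libraries of lowest TMM factor (edgeR's scaling for composition) had 0.84 to 0.93 against 1.04 to 1.12 in the other 8. They were bioreplicate 2 of M_BB, P_BB and P_Bb and bioreplicate 3 of P_Bb. XLOC loci took 37.8% to 44.3% of their counts, against 28.8% to 35.2% in the other 8. Counts of loci, shares and levels were also computed without these 4 libraries, a choice made after seeing the data.

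The loci with several isoforms were expressed in nearly every library. Of the 476, 457 had counts in all 12 libraries, which was 96.0%, against 41.8% of multi-exon loci with 1 transcript and 79.6% of single-exon loci. No locus lacked counts altogether. Mean TPM ran from 0.602 to 2166, with a median of 31.0 and quartiles of 14.9 and 59.2. The mean was at least 100 expected counts at 303 loci.

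In each library the median locus with several isoforms stood above the median of the other assembled loci. Per library its median was 23.9 to 36.2 TPM, against 1.58 to 2.89 TPM for multi-exon loci with 1 transcript and 11.4 to 14.3 TPM for single-exon loci. On the log2(TPM + 1) scale the difference from multi-exon loci with 1 transcript was 3.23 on average and between 3.04 and 3.48 over libraries, higher in 12 of 12. The difference from single-exon loci was 1.15, between 0.93 and 1.34, again in 12 of 12. These levels are given as a description and not as a test, since the loci were assembled from these same reads, assembling an isoform needs reads, and 94 of the 510 multi-exon loci with 1 transcript had no counts in any library. With loci of at least 1 TPM only, the difference from multi-exon loci with 1 transcript was 1.06.

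**Figure D2:**
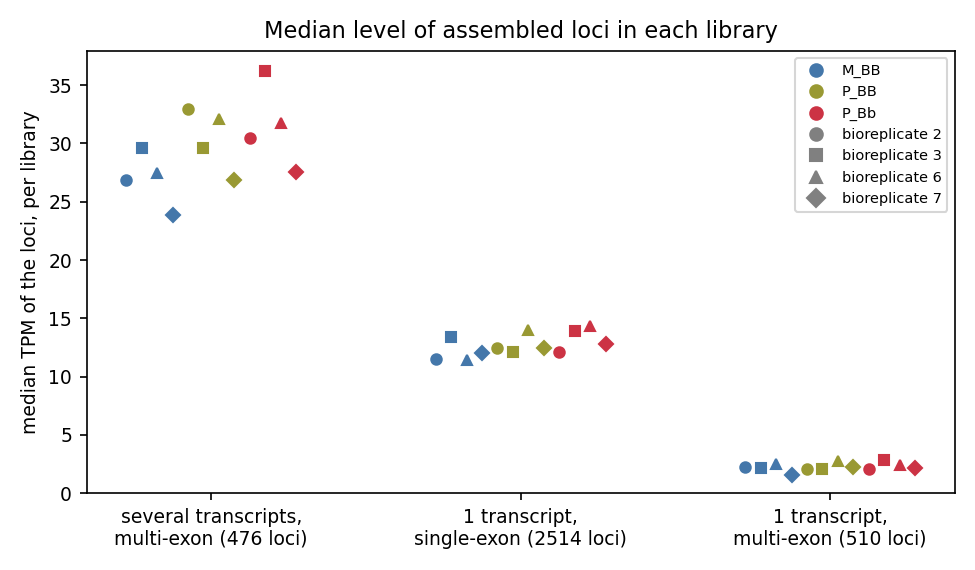
Median TPM of each kind of assembled locus (y axis, starting at 0) in each of the 12 libraries, coloured by worker class and shaped by bioreplicate. In every library the loci with several transcripts are highest (23.9 to 36.2 TPM) and the multi-exon loci with 1 transcript lowest.

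Within the 476 loci the level was similar at 2 and 3 transcripts and higher at 6 or more. The median of the mean TPM was 26.3 at 2 transcripts, 27.8 at 3, 33.4 at 4 or 5 and 68.2 at 6 or more. Across loci the number of transcripts and the mean TPM had a Spearman's rho of 0.212. All 46 loci with 6 or more transcripts had counts in all 12 libraries.

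The highest level belonged to a locus opposite an official gene. XLOC_016279 (scaffold 26, 1636837 to 1651282, minus strand) has 2 transcripts, overlaps SINV18906 on the opposite strand, and had 1321, 1717, 1896 and 1832 TPM in M_BB, 3235, 1998, 2092 and 2519 TPM in P_BB, and 3035, 2355, 2194 and 1796 TPM in P_Bb, in the order of bioreplicates 2, 3, 6 and 7. Its highest values were in the polygyne libraries of bioreplicate 2, and the classes overlapped. By social form its log2 fold change was -0.47 (SE 0.21, unadjusted p = 0.038 and adjusted p = 0.57 in edgeR's quasi-likelihood test).

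XLOC_003840 lies on contig 38304 from base 1 to 1088 and had 1162 to 1870 TPM in M_BB, 1482 to 2196 TPM in P_BB and 1396 to 1939 TPM in P_Bb. XLOC_014656 (scaffold 21, 1746733 to 1752754) had 468 to 1387 TPM in M_BB, 760 to 1216 TPM in P_BB and 735 to 975 TPM in P_Bb. XLOC_001554 on contig 25041 had 401, 398, 745 and 293 TPM in M_BB, 1718, 577, 915 and 398 TPM in P_BB, and 1090, 1377, 901 and 528 TPM in P_Bb. Its M_BB values lay toward the low end, but 3 polygyne libraries lay within their range. XLOC_014570 on scaffold 21 had 395 to 912 TPM in M_BB, 618 to 735 TPM in P_BB and 548 to 791 TPM in P_Bb.

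Scaffold 21 held 6 of the loci, the most of any scaffold, with mean levels from 3.35 to 912 TPM. XLOC_014570 (1483481 to 1490024, plus strand) and XLOC_014641 (1486909 to 1489341, minus strand) lie over each other on opposite strands, and both had their lowest value in M_BB bioreplicate 3 (395 and 345 TPM) and their highest in M_BB bioreplicate 2 (912 and 981 TPM). Reads from this pair cannot be assigned to a strand here. At XLOC_014663 on the same scaffold the TPM of 3.35 rests on a mean of 0.25 expected counts and is not measured at this depth.

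Scaffold 28, which also holds XLOC_016888, listed by the study as an odorant receptor, carried 5 of the loci with mean levels from 8.15 to 276 TPM. None of the 5 had an unadjusted p under 0.05 by genotype or by social form in edgeR, and their adjusted p-values were 0.999 by genotype and 0.632 to 0.976 by social form (Benjamini-Hochberg). XLOC_016872 (1639945 to 1664432), opposite SINV19391, was the highest of them, with 228 to 384 TPM in M_BB, 223 to 312 TPM in P_BB and 233 to 297 TPM in P_Bb.

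The spread between bioreplicates of a class differed widely from locus to locus. At loci with a mean of at least 100 counts the coefficient of variation of TPM within a class, averaged over the 3 classes, had a median of 23.3%, against 22.01% for multi-exon loci with 1 transcript and 24.4% for single-exon loci. The steadiest was XLOC_019461 on scaffold 38, with 7.28%, whose 4 P_Bb values lay between 28.4 and 29.3 TPM. XLOC_030777 (8.87%) and XLOC_032458 (8.95%) followed.

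The most variable were XLOC_002383 (90.1%), XLOC_002382 (82.9%) and XLOC_041456 (73.5%). XLOC_002382 and XLOC_002383 cover the same 1809 bases of contig 28275 on opposite strands. XLOC_002383 had 1306, 120, 500 and 108 TPM in M_BB, 1381, 279, 329 and 203 TPM in P_BB, and 836, 1116, 575 and 191 TPM in P_Bb. Its 4 highest values were in the 4 libraries of lowest TMM factor, in all 3 classes, and XLOC_002382 had its 4 highest there too (444 to 678 TPM, against 40.4 to 367 TPM in the other 8). The same 4 libraries gave the highest values of XLOC_041456 on scaffold 565 (139 to 233 TPM, against 34.0 to 106 TPM). The part of library composition in these values was not tested.

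P_BB and P_Bb libraries of the same colony were closer to each other than those of different colonies. Pairs from a colony also shared a bioreplicate number, so colony and joint sampling cannot be told apart here. For the 303 loci with a mean of at least 100 counts, the absolute difference between a P_BB and a P_Bb library on the log2(TPM + 1) scale had a median of 0.23 within a colony (4 pairs) and of 0.37 between colonies (12 pairs). It was smaller within the colony at 260 loci, which was 85.8%, against 82.6% of all 4533 genes tested at this depth.

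Together the 476 loci took 10.3% to 13.3% of the expected counts of a library. P_Bb had 11.9% ± 1.23 (SD, n = 4) and the other 8 libraries 11.4% ± 0.865, a difference of 0.468 percentage points (p = 0.465, two-sided exact permutation test over 495 arrangements). M_BB had 11.015% ± 0.585 (SD, n = 4) and the 8 polygyne libraries 11.8% ± 1.04, a difference of -0.799 points (p = 0.204, same exact test). The smallest p these tests allow is 0.00202, and the 8 polygyne libraries came from 4 colonies. Neither test passed 0.05, and the classes overlapped. The 4 libraries of lowest TMM factor had 11.7% to 13.3%, above all of the other 8 (10.3% to 11.5%). Without them the difference by genotype was -0.119 points (p = 0.821, exact).

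**Figure D3:**
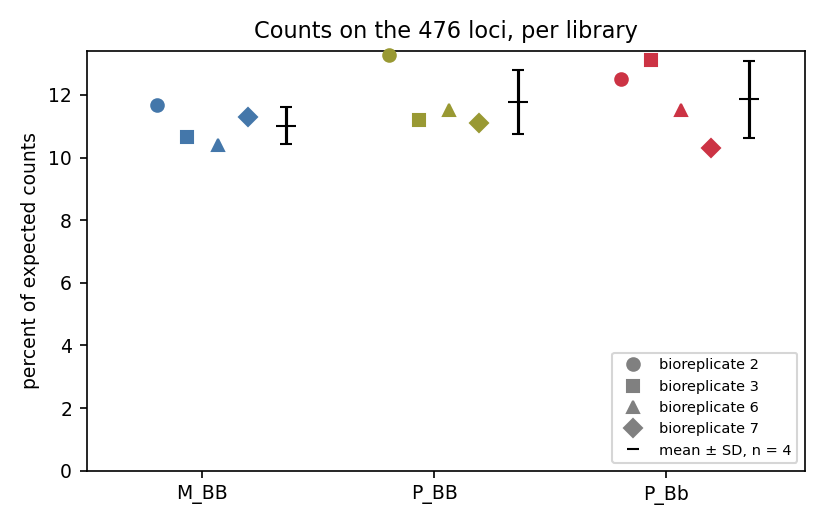
Percent of a library's expected counts on the 476 loci (y axis, starting at 0) for the 4 bioreplicates of each class, with the class mean and SD in black. The classes overlap between 10.3% and 13.3%.

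For each locus the classes were compared with edgeR's quasi-likelihood test over all genes that passed a filter on low counts, 10503 genes of which 453 were loci with several isoforms. The 23 others had too few counts. For genotype, P_Bb was set against the average of both SB/SB classes. For social form, M_BB was set against the average of both polygyne classes. The comparisons share libraries. The fit had no term for the colony, although the 8 polygyne libraries came from 4 colonies. Its p-values thus treat nestmate libraries as independent. A locus is said to have passed where its p-value, adjusted by Benjamini and Hochberg over all 10503 genes, was under 0.05.

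No locus with several isoforms passed in any of the 4 comparisons. By genotype 0 of 453 passed, against 24 of 10503 genes (0.229%), and 11 loci had an unadjusted p under 0.05 (2.43%, against 2.29% of all genes). By social form 0 passed, against 5 genes (0.0476%), and 33 loci had an unadjusted p under 0.05 (7.28%, against 8.67%). Between P_Bb and P_BB 0 passed, against 14 genes (0.133%), with 7 loci under 0.05 unadjusted (1.55%, against 1.01%). Between P_BB and M_BB 0 loci and 0 genes (0.0%) passed, with 22 loci under 0.05 unadjusted (4.86%, against 4.81%). The shares of loci with a low unadjusted p were thus near those of all genes. DESeq2 called 1 locus by genotype and 1 between P_Bb and P_BB, and 0 in the other comparisons. A fit of edgeR with the bioreplicate as a block called 1 by genotype and 0 in the others, and limma on log2(TPM + 1) called 0 in all 4. For DESeq2, the block fit and limma the number called among all genes is not given here, so these calls lack a background. Without the 4 libraries of lowest TMM factor edgeR called 0 loci in all 4 comparisons. Its calls among all genes were then 20 (genotype), 5 (social form), 3 (P_Bb set against P_BB) and 4 (P_BB set against M_BB). The loci with an unadjusted p under 0.05 were then 11 of 458 by genotype (2.4%, against 2.37% of all 11060 genes tested) and 14 of 458 by social form (3.06%, against 3.89%).

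The differences between classes were small at most loci. The median absolute log2 fold change was 0.14 by genotype and 0.21 by social form, against 0.16 and 0.24 over all genes, while the median standard error of the loci was 0.24 and 0.25. An absolute log2 fold change over 1 was fitted at 5 loci by genotype and 7 by social form. The signed median was 0.07 by genotype, with 301 of 453 loci above 0 (66.4%), against -0.01 and 49.1% over all genes. Without the 4 libraries of lowest TMM factor it was -0.0024, with 224 of 458 above 0 (48.9%, against 48.1%). By social form the signed median was -0.10, with 159 of 453 above 0 (35.1%), against 0.02 and 52.2% over all genes. Without those libraries it was -0.07, with 172 of 458 above 0 (37.6%, against 53.5%). With all 12 libraries, assembled loci with 1 transcript leaned the same way, so the lean is not particular to loci with several isoforms. Multi-exon loci with 1 transcript had signed medians of 0.09 by genotype (131 of 203 above 0) and -0.10 by social form (75 of 203). Single-exon loci with 1 transcript had 0.06 (1123 of 1902) and -0.07 (816 of 1902).

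The locus nearest to passing was XLOC_041741 (scaffold 598, 90474 to 92806, plus strand), which the study lists as BEN domain-containing protein 6-like. BEN domains are found in animal proteins that bind DNA and act on chromatin and transcription. The locus has 3 transcripts, lies between official genes and overlaps no other locus. It had 0.00, 8.23, 5.09 and 0.93 TPM in M_BB, 0.67, 2.84, 3.27 and 3.02 TPM in P_BB, and 5.64, 20.03, 16.14 and 25.02 TPM in P_Bb. The P_Bb libraries were higher than both other classes except that P_Bb bioreplicate 2 lay below M_BB bioreplicate 3. P_Bb averaged 16.7 ± 8.22 TPM (SD, n = 4) and the other 8 libraries 3.01 ± 2.69 TPM, on a mean of 27.8 expected counts.

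By genotype the log2 fold change of XLOC_041741 was 2.50 (SE 0.55), with an adjusted p of 0.16 in edgeR, 0.00441 in DESeq2, 0.0134 in edgeR with the bioreplicate block and 0.0376 without M_BB bioreplicate 2, the library with 0 counts. Over all alternatives run, its adjusted p by genotype lay between 0.00441 and 0.717. In each of the 4 colonies the P_Bb library was higher than its P_BB nestmates. Against P_BB alone the log2 fold change was 2.79 (SE 0.71), with an adjusted p of 0.507 in edgeR, 0.0163 in DESeq2 and 0.0584 with the block, and between 0.0163 and 0.99998 over all alternatives. The call thus depends on the model. The study chose this locus, XLOC_002426 and XLOC_034528 for its list of differing genes on these same samples, so their direction is not independent evidence. It called them with EBSeq by a threshold on a posterior probability, whereas none of them passed in the main edgeR fit here. Both the model and the threshold differ.

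**Figure D4:**
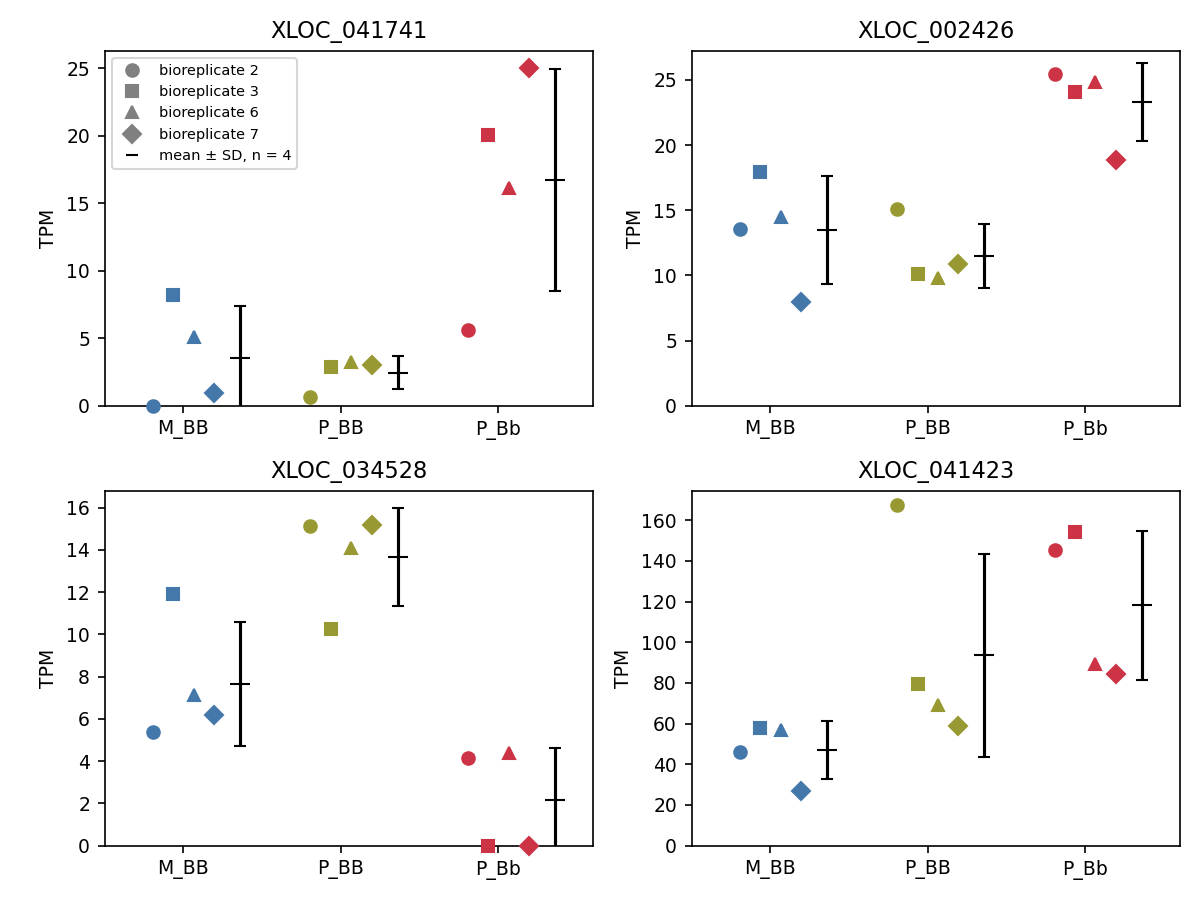
TPM (y axes, starting at 0) of 4 loci in each library by worker class, with the mean and SD of the 4 bioreplicates in black. XLOC_041741 is highest in P_Bb with 1 overlap, XLOC_002426 and XLOC_034528 separate P_Bb from the other 8 libraries, and XLOC_041423 separates M_BB; SD bars that would reach below 0 are drawn to 0.

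Few loci separated a class fully. The 4 P_Bb libraries lay apart from all other 8 in TPM at 2 of 453 loci, against 0.419% of all genes tested, and the 4 M_BB libraries at 2 of 453, against 0.686%. These counts were near the background. For P_Bb the loci were XLOC_002426, higher in P_Bb, and XLOC_034528, lower in P_Bb. For M_BB they were XLOC_041423 and XLOC_040261, both lower in M_BB. XLOC_040261 was named after its values were seen.

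XLOC_002426, on contig 28506 from 147 to 1778, is an uncharacterized protein with 2 transcripts between official genes. It had 13.5, 17.9, 14.5 and 7.95 TPM in M_BB, 15.1, 10.1, 9.82 and 10.9 TPM in P_BB, and 25.5, 24.1, 24.8 and 18.9 TPM in P_Bb. The lowest P_Bb value was above the highest of the other 8. The log2 fold change by genotype was 0.84 (SE 0.26, unadjusted p = 0.0055, adjusted p = 0.999 in edgeR, 0.436 in DESeq2 and 0.55 with the block, and 0.406 or more in every alternative).

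XLOC_034528 (scaffold 205, 204315 to 210973), also an uncharacterized protein, lies opposite another locus and matches SINV22005. It had 5.36, 11.9, 7.14 and 6.17 TPM in M_BB, 15.1, 10.3, 14.1 and 15.2 TPM in P_BB, and 4.17, 0.00, 4.40 and 0.00 TPM in P_Bb. The P_Bb libraries lay below the other 8, and 2 of them were listed at 0 where their P_BB nestmates had 10.3 and 15.2 TPM. The log2 fold change by genotype was -2.24 (SE 0.75, unadjusted p = 0.011, adjusted p = 0.999 in edgeR). RSEM's posterior SD was 50.8% of its count, and the part of this uncertainty in the 0 values was not tested.

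Other loci with the smallest unadjusted p by genotype overlapped between classes. Toward higher levels in P_Bb they were XLOC_041889 (6.53 ± 2.66 TPM in P_Bb, SD, n = 4, and 3.28 ± 2.43 TPM in the other 8) and XLOC_043780 (201 ± 53.6 and 159 ± 42.7 TPM). Toward lower levels they were XLOC_042975 (25.9 ± 11.5 and 42.5 ± 12.4 TPM), XLOC_042976 (20.9 ± 5.96 and 33.1 ± 13.02 TPM) and XLOC_040951 (66.4 ± 29.0 and 125 ± 33.7 TPM). XLOC_042975 and XLOC_042976 are neighbours on scaffold 814, on the same strand, and both had their highest value in P_BB bioreplicate 6 (66.3 and 56.9 TPM). All 5 had an adjusted p of 0.999 in edgeR.

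By social form the smallest p belonged to XLOC_041423 (scaffold 559, 26572 to 28282), which matches SINV12136. It had 46.3, 58.1, 56.8 and 26.9 TPM in M_BB, 168, 79.5, 69.0 and 59.0 TPM in P_BB, and 145, 154, 89.1 and 84.3 TPM in P_Bb. Every M_BB library lay below every polygyne library. The log2 fold change was -1.14 (SE 0.36, unadjusted p = 0.0067, adjusted p = 0.463 in edgeR). Its highest values were in the 3 polygyne libraries of low TMM factor.

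XLOC_035586 (369 ± 67.4 TPM in M_BB, SD, n = 4, and 572 ± 106 TPM in the 8 polygyne libraries), XLOC_035344 (44.8 ± 7.55 and 60.3 ± 6.35 TPM) and XLOC_033544 (16.3 ± 3.73 and 24.3 ± 3.34 TPM) were also lower in M_BB on average. Toward higher levels in M_BB the loci were XLOC_041673 (35.4 ± 8.79 and 25.9 ± 7.02 TPM), XLOC_034270 (24.1 ± 6.21 and 18.1 ± 3.82 TPM), XLOC_044011 (50.0 ± 24.6 and 33.8 ± 6.32 TPM) and XLOC_040951 (136 ± 37.5 and 89.7 ± 36.9 TPM). Adjusted p-values in edgeR ran from 0.473 to 0.524 for these 7 loci. At all of them M_BB overlapped the polygyne libraries.

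The isoform make-up of a locus can change without its level. RSEM gives each locus a length that is the mean of its transcripts' lengths weighted by their abundance, so this length moves with the isoforms in use. It varied between libraries at 307 of the 476 loci and was fixed at 169. The fixed ones include the 148 loci with only 1 transcript in the counting reference, where the length cannot vary. At loci where 2 transcripts were counted and differed by at least 10 bases, the length gives the share of each. There were 186 such loci, 107 with a mean of at least 100 counts.

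At these 107 loci the longer transcript had a median share of 70.6%, with quartiles of 46.0% and 93.5%. It was above 50% in all 12 libraries at 46 loci, below 50% in all 12 at 17, and on both sides at 44. The SD over the 12 libraries had a median of 9.40 percentage points and a maximum of 33.5. At 42 of the 107 loci the longer transcript had fewer exons, and an exon of an assembled transcript spanned an intron of another. The transcripts of that pair need not be those counted, so the longer one is not shown to keep the intron. At these 42 loci the longer transcript had a median share of 86.5% and was above 90% in all 12 libraries at 10 loci. At XLOC_041949, a locus picked after its values were seen, the unspliced transcript held 98.1% to 100% in every library.

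At the highest locus, XLOC_016279, the shorter transcript with more exons was in the majority. The longer one, which keeps an intron, made up 18.8%, 39.1%, 14.4% and 19.2% in M_BB, 20.3%, 24.0%, 21.7% and 21.9% in P_BB, and 19.3%, 24.7%, 21.7% and 28.4% in P_Bb. All but M_BB bioreplicate 3 lay within 14.4% to 28.4%. At XLOC_003840 the longer, unspliced transcript made up 5.39% to 15.8%, and at XLOC_001554 the longer transcript 5.6% to 23.5%.

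XLOC_016872 on scaffold 28 was among the loci whose make-up differed most between libraries. Its longer transcript had 93.3%, 6.20%, 19.9% and 2.75% in M_BB, 75.7%, 9.87%, 9.61% and 10.2% in P_BB, and 49.8%, 33.9%, 12.1% and 20.0% in P_Bb. The 4 highest were the 4 libraries of lowest TMM factor, from all 3 classes. The transcripts have RSEM lengths of 24233 and 24342 bases and thus differ little.

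**Figure D5:**
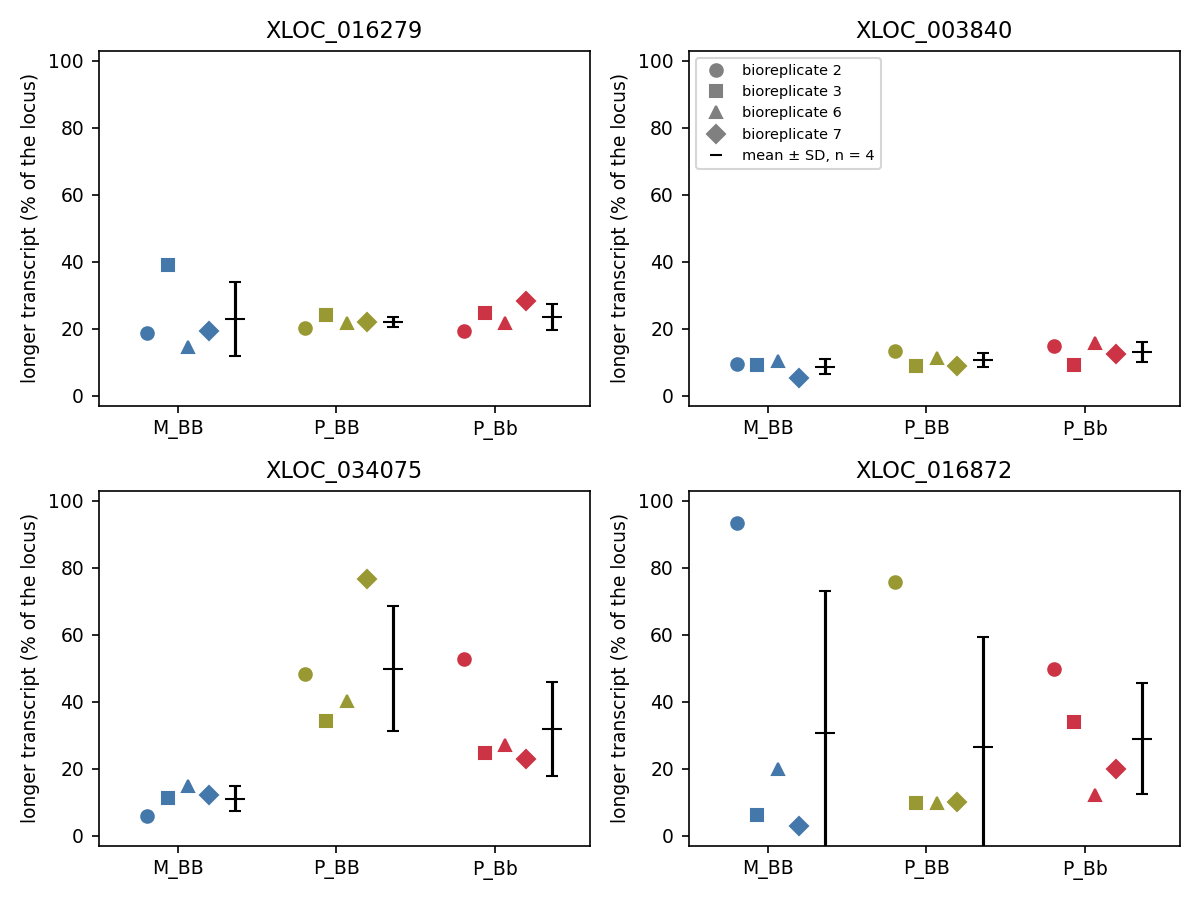
Share of the longer of 2 transcripts at 4 loci (y axes, percent of the locus) in each library by worker class, with the mean and SD of 4 bioreplicates in black. At XLOC_016279 and XLOC_003840 the share stays under 40%, at XLOC_034075 M_BB lies below the polygyne libraries, and at XLOC_016872 bioreplicate 2 is highest in every class; SD bars outside the axis are not drawn in full.

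Between classes the weighted length was tested with limma on its log2 over 458 loci, 289 of them with several isoforms as defined here. None passed by genotype (0 of 458, 0.0%) or by social form (0 of 458, 0.0%) after Benjamini-Hochberg adjustment. With an unadjusted p under 0.05 there were 7 of 289 by genotype (2.42%, against 2.4% of all loci tested) and 21 of 289 by social form (7.27%, against 5.68%). The 289 make up most of the 458, so this background is largely the same loci. Of all 458, 11 had an unadjusted p under 0.05 by genotype and 26 by social form. XLOC_043345, XLOC_041024, XLOC_024727 and XLOC_034075, which follow, were named after their values were seen.

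The leading locus by genotype was XLOC_043345 (scaffold 913, 12509 to 28331), with 3 transcripts between official genes. Its weighted length was 5512, 5494, 5505 and 5453 bases in M_BB, 5544, 5572, 5503 and 5518 bases in P_BB, and 5655, 5610, 5620 and 5653 bases in P_Bb. Every P_Bb library lay above the other 8. The log2 difference was 0.03 (SE 0.01, adjusted p = 0.107 in limma), and the adjusted p was 0.0311 among loci with a mean of at least 100 counts, in a range of 0.0311 to 0.926 over all alternatives run.

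By social form the smallest p belonged to XLOC_041024 (scaffold 517, 25266 to 27358). Its longer, single-exon transcript held 34.1%, 86.7%, 66.3% and 23.1% in M_BB, 14.8%, 0.0%, 13.2% and 0.0% in P_BB, and 0.0%, 0.0%, 13.1% and 0.0% in P_Bb. All M_BB libraries lay above all 8 polygyne libraries, with an unadjusted p of 0.00125 and an adjusted p of 0.352 in limma, on a mean of 26.4 expected counts.

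In the opposite direction XLOC_034075 (scaffold 195, 34357 to 43851), which overlaps a locus on the opposite strand, separated the classes in make-up. Its longer, single-exon transcript held 5.97%, 11.1%, 14.9% and 12.0% in M_BB, 48.2%, 34.3%, 40.2% and 76.6% in P_BB, and 52.7%, 24.8%, 27.0% and 22.7% in P_Bb. All M_BB libraries lay below all 8 polygyne libraries, with an unadjusted p of 0.0051 and an adjusted p of 0.389 in limma, on a mean of 106 expected counts. XLOC_024727 had weighted lengths of 1369 to 1978 bases in M_BB, below the 2008 to 2495 bases of the polygyne libraries (adjusted p = 0.389).

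The widest relative ranges of length belonged to XLOC_038627 (203% of its mean), XLOC_032587 (139%), XLOC_043042 (114%) and XLOC_018221 (113%). The shortest counted transcript of each had 218 to 446 bases and the longest 1420 to 11337. At XLOC_038627 the length was 3860 bases in M_BB bioreplicate 2 and 1024 to 1671 bases in the other 11 libraries, while its TPM there was 85.2, the lowest of all, against 240 to 697 elsewhere. At XLOC_032587 the length was 1325 bases in P_Bb bioreplicate 7 and 446 to 659 bases elsewhere, and its TPM there was again the lowest (110, against 284 to 570). TPM is scaled by this length, so at these loci it moves with the transcripts to which reads were assigned.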

How the data were processed

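Antennal RNA of 12 worker libraries was amplified and sequenced. The authors trimmed the reads, assembled transcripts on Si_gnH with the Tuxedo tools, and added assembled loci with an open reading frame similar to a known gene to the official gene set. Per the labels Bowtie2 and RSEM gave the values, each library on its own. The deposited expected counts are not scaled for library size, and the deposited TPM are scaled for length and depth. The authors' length column and exon annotation were used for isoforms and positions.

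Members, lists and the rule for named loci were chosen with earlier results of these data known. That rule took loci in the study's gene list, those with most transcripts, highest TPM, smallest p in each direction, lowest and highest variation, longest span and widest length range, and those on scaffolds 21 and 28. Names come from the study's table. SINV names come from the annotation. Sequences of the loci were not used here.

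Expected counts were rounded, and genes were filtered with filterByExpr. edgeR 4.0.16 (R 4.3.3, TMM, robust quasi-likelihood, 12 libraries, no covariate) was the main model, with DESeq2 1.42.0 and limma 3.58.1 as alternatives. The SE given for edgeR is the absolute log2 fold change divided by the square root of the test's F statistic, not a fitted standard error. The study's methods used EBSeq. Other alternatives were other scalings and filters, a threshold of 0.01, loci with 3 or more transcripts, the library name prefix as a covariate, and leaving out each library. Leaving out the 4 libraries of lowest TMM factor was chosen after seeing the data. Permutation tests used Python 3.11.15. Adjusted p-values follow Benjamini and Hochberg.

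Bioreplicate numbers pair the samples: by label, polygyne libraries with the same number come from 1 colony, and by the study's methods each number was sampled together. Deviations from class means correlated across genes with a median r of 0.230 over the 12 pairs of the same number (-0.348 to 0.637), of 0.386 over the 4 of these from the same colony (0.080 to 0.637), and of -0.089 over 36 pairs of different numbers (-0.524 to 0.431). On simulated counts edgeR recovered 98.5% of 194 genes changed by 2 on the log2 scale by genotype, among 10305 genes. Smaller changes were not simulated. The simulation gave every gene the same dispersion and drew the libraries independently of each other. The share recovered is a check of the code and does not give the power in the real data. No 2 libraries of a class were copies, with a chi-square per degree of freedom of 5.99 or more.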

Additional observations from a re-analysis of the deposited data

Results flagged for a closer look

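Within a class of 4 bioreplicates, 1 library stood apart from the other 3 in 8 of the 117 groups of values examined. All flagged loci were named by a rule that picked in part on variation, so the count is not set against a chance rate. In P_BB bioreplicate 2, XLOC_002382 had 678 TPM, XLOC_002383 1381 TPM and XLOC_027401 95.5 TPM, each above the other 3, while XLOC_041741 had 0.67 TPM, below them. XLOC_002382 and XLOC_002383 lie on opposite strands of the same bases, and their reads cannot be told apart by strand. XLOC_020326 was low in P_BB bioreplicate 7 (38.1 TPM), XLOC_041889 high in P_BB bioreplicate 3 (3.78 TPM) and XLOC_042975 high in P_BB bioreplicate 6 (66.3 TPM). XLOC_030777 was high in M_BB bioreplicate 7 (74.9 TPM), although it was among the least variable loci.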

How the results depend on the processing

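The count of 0 loci by genotype became 1 with DESeq2, with the replicate block and without M_BB replicate 2 (0 to 1 over the libraries left out). That locus was XLOC_041741, whose log2 fold change was 2.50 in edgeR, 2.55 with DESeq2, 2.68 with the block and 2.29 to 2.80 over the libraries left out. Between P_Bb and P_BB DESeq2 gave 1. All other alternatives to these 4 counts gave 0, and the block changed no other call. For isoform length by genotype, 1 locus passed among loci with at least 100 counts. For the settings that gave 1 locus, the number called among all features is not given here, so these calls lack a background. The difference in the share of counts turned in sign by genotype as a share of the counts on XLOC loci (-0.203 points, p = 0.885, exact permutation test) and without the 4 libraries of lowest TMM factor (-0.119 points). By social form it turned as a share of XLOC counts (1.60 points, p = 0.176, exact). With labels permuted within bioreplicates (replicate block) the exact p was 0.383 by genotype and 0.136 by social form, where 0.0123 is the smallest possible. The level differences kept their sign under every alternative run. XLOC_041741 rests on a mean of 27.8 expected counts, and 23 loci had too few counts to be tested.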
